A study of Mus musculus with 10 samples.

Results

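The genes described here carry a symbol made of Zfp, for zinc finger protein, and a number. They were taken from the deposited expression table of mouse macrophages by that symbol, leaving out Zfp36, whose CCCH fingers bind messenger RNA. Of 11617 genes in the table, 277 were members, and 268 of these reached a mean of 1 CPM and were tested. CPM is the read count per 1e+06 of the scaled library size.

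Bone marrow of C57BL/6 mice had been grown into macrophages with the cytokine GM-CSF at 50 ng/ml, in medium that held 10% serum. The labels give the age of the mice as 7 weeks in one field and 6 weeks in another, and give no sex. The groups were AmTARS for 1 h, AmTARS for 3 h, Pam3csk4 for 1 h, Pam3csk4 for 3 h and control cells without a time label, with 2 libraries each (n = 2 per group). AmTARS is an enzyme of Akkermansia muciniphila, a bacterium of the gut, that charges tRNA with threonine, and Pam3csk4 is a synthetic lipopeptide recognised by the Toll-like receptor TLR2. The series compares both as ligands of that receptor. Pam3csk4 was used at 10 ng/ml, while for AmTARS a dose of 0.5 mm is written, a unit of length, and doses of both cannot be compared. Nothing in the labels says that libraries of a group came from separate animals or cultures, and p-values then measure the spread between these libraries, which may be technical.

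The libraries held 27398791 to 37559810 reads in listed genes. All 8 macrophage markers looked up, among them Adgre1, Csf1r and Cd68, were listed, with summed levels of 50533 to 53970 CPM in treated libraries and 49274 to 50987 CPM in control libraries. None of the 8 T-cell and B-cell markers was in the table. Neutrophil markers (5 of 6 listed, S100a8, S100a9, Mpo, Elane and Camp) summed to 1369 to 1822 CPM in treated libraries and to 1003 to 1091 CPM in control libraries. Fibroblast markers (4 of 4 listed) summed to 808 to 961 CPM in treated and 928 to 985 CPM in control libraries, dendritic cell markers (2 of 5, Itgax and Ccr7) to 59.4 to 68.3 CPM in treated and 67.8 to 69.1 CPM in control libraries, and mast cell markers (3 of 4) to 7.76 to 9.85 CPM in treated and 7.37 to 8.77 CPM in control libraries. Of these 5 neutrophil markers, 4, 3, 4 and 4 rose with AmTARS at 1 h and 3 h and Pam3csk4 at 1 h and 3 h. Over all genes tested, 18.9%, 18.8%, 23.9% and 24.7% were higher. With Pam3csk4 at 1 h, 1 of the 5 fell (lowest log2 difference -0.33), where 24.8% of all genes were lower. After the correction for length and GC content described below, 2, 3, 3 and 3 rose, where 8.37%, 11.2%, 11.9% and 20.8% of all genes were higher. In that setting 1 fell with Pam3csk4 at 1 h, where 11.9% were lower. The part of these marker differences in the comparisons with control below was not tested. In these bulk samples, fewer cells of a type and less RNA per cell cannot be told apart.

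A classical zinc finger is a short loop folded around a zinc ion that is held by cysteines and histidines, and fingers in a row read a stretch of DNA. Many such proteins also carry a KRAB domain, which binds the co-repressor Trim28. Trim28 recruits the histone methyltransferase Setdb1, and the complex keeps transposable elements and imprinted genes silent. Genes of this kind lie in clusters of related copies, and reads from near-identical copies may have been split between them by the counting, which is not described in the sources used here.

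The symbol does not by itself make a gene a transcription factor, so the encoded proteins were examined. Of the 277 members, 275 were protein-coding in GENCODE M21 (build mm10) and 2, Zfp783 and Zfp939, were pseudogenes. Counted by the spacing of cysteines and histidines, the tested members had a median of 11 fingers, and Zfp142 had the most, 37. Another 6 coding members, among them Zfp703 and Zfp503, had no match to this spacing. A KRAB A-box signature was found in 138 members, 130 of them tested, with a median of 12 fingers, and 137 tested coding members had no such signature, with a median of 8 fingers. A diverged KRAB domain may be missed. Chromosome 7 held 75 members, chromosome 17 held 34 and chromosome 13 held 26.

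The members were expressed at low levels. Their median was 2.23 CPM per kb of transcript, against 7.88 CPM per kb over all genes tested. The median level was 1.51 CPM per kb with the KRAB signature and 3.81 CPM per kb without it. Per kb, the highest levels were those of Zfp207 at 73.3 CPM, which encodes a spindle assembly factor, and Zfp740 at 70.7 CPM. They were followed by Zfp263 at 23.6, Zfp710 at 23.2 and Zfp414 at 23.2 CPM per kb. The lowest read count of any member in any library was 7, and the 9 members below a mean of 1 CPM included Zfp708, a KRAB protein, and Zfp334.

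Promoter sequences are shown for Zfp292 and Zfp109, named below for falls, and for Zfp771 and Zfp511, named below for rises at 1 h, as the largest of the named falls and rises at 1 h that had a promoter entry. Each is the stretch of 250 bases before the start in RefSeq annotation of GRCm38.p6, written 5′ to 3′ on the strand of the gene. Capitals mark matches on either strand to the GC box with the letters GGGCGG, to the core of the site bound by the activator Zfp143, and to the CCAAT box, named for its letters. Zfp292 had no match, Zfp109 had 1 Zfp143 core, Zfp771 had 5 GC boxes and 1 CCAAT box, and Zfp511 had 2 GC boxes. Adjacent GC boxes at the end of the Zfp771 window share a base.
Zfp292 (chr4:34882949-34883198, strand minus): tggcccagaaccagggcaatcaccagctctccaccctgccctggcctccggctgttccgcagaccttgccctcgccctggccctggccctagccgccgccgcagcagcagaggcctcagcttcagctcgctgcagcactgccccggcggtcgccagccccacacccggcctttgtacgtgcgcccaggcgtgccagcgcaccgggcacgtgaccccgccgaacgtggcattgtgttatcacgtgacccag
Zfp109 (chr7:24237599-24237848, strand minus): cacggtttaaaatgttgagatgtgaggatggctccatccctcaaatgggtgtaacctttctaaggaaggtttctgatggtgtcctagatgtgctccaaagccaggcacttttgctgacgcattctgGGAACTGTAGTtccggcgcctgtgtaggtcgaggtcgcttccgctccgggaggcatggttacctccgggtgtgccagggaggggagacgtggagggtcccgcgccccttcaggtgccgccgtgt
Zfp771 (chr7:127244276-127244525, strand plus): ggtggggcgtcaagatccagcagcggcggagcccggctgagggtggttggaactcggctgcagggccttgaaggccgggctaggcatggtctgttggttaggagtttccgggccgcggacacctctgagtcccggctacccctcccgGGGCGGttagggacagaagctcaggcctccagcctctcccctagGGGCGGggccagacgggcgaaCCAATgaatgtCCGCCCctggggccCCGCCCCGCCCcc
Zfp511 (chr7:140036141-140036390, strand plus): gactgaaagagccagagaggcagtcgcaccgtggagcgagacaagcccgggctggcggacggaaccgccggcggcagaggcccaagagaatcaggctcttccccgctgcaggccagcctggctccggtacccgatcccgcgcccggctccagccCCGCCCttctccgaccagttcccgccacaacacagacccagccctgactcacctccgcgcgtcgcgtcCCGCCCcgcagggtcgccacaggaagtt

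A promoter was found for 223 of the 268 tested members and for 8957 listed genes. The Zfp143 core was present in 19.3% of the members' promoters, against 4.56% of those of all listed genes. It was present in 25.4% of promoters of members with the KRAB signature and in 13% of those without it. The CCAAT box was found in 48.4% of members and 36.5% of all genes, and the GC box in 43.9% of members and 60.3% of all genes. TATAAA was found in 5.38% of members and 6.02% of all genes, and the core of an NF-kB site in 0.897% of members and 0.368% of all genes. A match is a description of letters, not a site shown to be bound.

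Summed over the members, Zfp messenger RNA made up less of the library in all 4 treated groups than in control cells. The members summed to 3505 and 3477 CPM with AmTARS at 1 h, 3478 and 3492 CPM with AmTARS at 3 h, 3396 and 3472 CPM with Pam3csk4 at 1 h, 3568 and 3420 CPM with Pam3csk4 at 3 h, and 3835 and 3794 CPM in control libraries. Every treated library was below both control libraries. As a share of all CPM listed, the members made up 0.330% to 0.355% in treated libraries, against 0.400% and 0.395% in control libraries.

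With AmTARS at 1 h, 13 members rose and 71 fell, where 18.9% of all genes tested were higher and 19.8% lower (limma, adjusted p below 0.05; 38.7% changed). The members' shares were 4.85% higher and 26.5% lower. With AmTARS at 3 h, 13 rose and 79 fell, against a background of 18.8% higher and 17.9% lower (36.7% changed), and the members' shares were 4.85% and 29.5%. Fold changes were small, with a median log2 difference of -0.12 at 1 h and -0.14 at 3 h, while the median over all genes was within 0.01 of 0. Without the AmTARS 1 h library of replicate 3, 44 members changed at 1 h in place of 84, and without either control library 38 (replicate 2) or 54 (replicate 3) did. At 3 h, 92 members changed, and 32, 52, 36 and 52 did without AmTARS 3 h replicate 1, AmTARS 3 h replicate 3, control replicate 2 and control replicate 3.

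With Pam3csk4, too, more members fell than rose. At 1 h 19 members rose and 99 fell, where 23.9% of all genes were higher and 24.8% lower (48.7% changed). At 3 h 17 rose and 94 fell, where 24.7% were higher and 24.2% lower (48.9% changed). The members' shares were 7.09% and 36.9% at 1 h, and 6.34% and 35.1% at 3 h. Their median log2 difference was -0.16 at 1 h and -0.19 at 3 h. Without Pam3csk4 1 h replicate 1, 75 members changed at 1 h in place of 118, and without Pam3csk4 3 h replicate 3, 56 changed at 3 h in place of 111. Fits without 1 library can call fewer genes of any kind, and their shares of all genes are not given here. The 4 comparisons share the control libraries, so a deviation of these would appear in each.

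Of the 43 members with the Zfp143 core in the promoter, 12 (27.9%), 17 (39.5%), 17 (39.5%) and 18 (41.9%) fell with AmTARS at 1 h, AmTARS at 3 h, Pam3csk4 at 1 h and Pam3csk4 at 3 h. Of the 180 members with a promoter but no core, 46 (25.6%), 50 (27.8%), 63 (35%) and 59 (32.8%) fell, where 19.8%, 17.9%, 24.8% and 24.2% of all genes were lower. These counts are of values as deposited and were not repeated after the correction for length and GC content described below. The core was also more frequent in promoters of members with the KRAB signature. Whether members with and without the core differ was not tested.

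**Figure D1:**
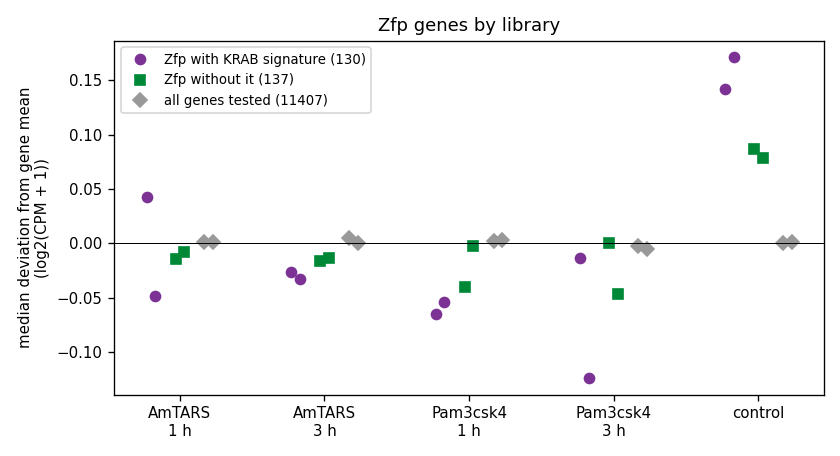
Median deviation of each library's log2(CPM + 1) values from the gene mean over 10 libraries (y axis), by group (x axis), for 130 members with the KRAB signature, 137 coding members without it and all 11407 genes tested; each symbol is 1 library. Both control libraries lie above all treated libraries for both kinds of member, at 0.142 and 0.172 with the signature, and all genes lie near 0.

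Falls were called with and without the KRAB signature. With the signature, 1, 1, 1 and 3 of 130 members rose with AmTARS at 1 h and 3 h and Pam3csk4 at 1 h and 3 h, and 33, 42, 54 and 53 fell. Without it, 12, 12, 18 and 14 of 137 rose, and 38, 37, 45 and 41 fell. Over all genes tested, 18.9%, 18.8%, 23.9% and 24.7% were higher and 19.8%, 17.9%, 24.8% and 24.2% lower. The median log2 differences were -0.16, -0.19, -0.21 and -0.25 with the signature, and -0.08, -0.09, -0.10 and -0.11 without it. Without AmTARS 1 h replicate 3, which stood below its partner in the plot of library medians, 9 members with the signature fell at 1 h in place of 33, and without control replicate 2 or 3, 15 or 21 did. Of those without the signature, 15 fell at 1 h without control replicate 2 in place of 38. With AmTARS at 3 h, 17, 22, 20 and 26 members with the signature and 12, 22, 13 and 20 without it fell when AmTARS 3 h replicate 1, AmTARS 3 h replicate 3, control replicate 2 and control replicate 3 were left out in turn. With Pam3csk4 at 1 h, 32 with the signature fell without Pam3csk4 1 h replicate 1 and 33 without control replicate 2. With Pam3csk4 at 3 h, 24 with the signature and 22 without it fell when Pam3csk4 3 h replicate 3 was left out, and 24 and 26 of those without the signature fell when control replicate 2 and control replicate 3 were. Fits that leave 1 library in a group can call fewer genes of any kind, and their shares of all genes are not given here. These lower counts are therefore not a result about the members. The difference between the kinds of member was not tested. By number of fingers, 11 of 40 members with 0 to 4 fingers rose and 10 fell with Pam3csk4 at 1 h, and 0 of 58 members with 15 or more fingers rose and 27 fell, where 23.9% of all genes were higher and 24.8% lower. After the correction for length and GC content described next, 3 of the 40 rose and 5 fell (12.5% lower), and 4 of the 58 rose and 7 fell (12.1% lower), where 11.9% of all genes were higher and 11.9% lower.

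Transcript length and base composition moved with these counts. Members had a median transcript length of 3386 nt, against 2955 nt over all genes tested, and a median GC content of 45.6%, against 50.4%. Over all genes, which share libraries and are not independent, Spearman's rho between length and log2 fold change against control was -0.718, -0.653, -0.715 and -0.505 with AmTARS at 1 h and 3 h and Pam3csk4 at 1 h and 3 h. Over the 268 members it was -0.521, -0.428, -0.479 and -0.306. Of 108 members above the upper tertile of length, 3850 nt, 54 fell with AmTARS at 1 h (50%) and 1 rose (0.926%). These shares were close to those of all 3787 genes of that length, 48.4% lower and 2.35% higher. Of 118 members between the tertiles, 2222 and 3850 nt, 12.7% fell and 2.54% rose, where 9.29% and 10.2% of all genes of that length did. Of 42 shorter members 4.76% fell and 21.4% rose, where 1.85% and 44.1% did. In the other 3 groups 17.8%, 28% and 29.7% of the middle members fell, where 9.98%, 16.7% and 21.2% did. Whether members differ from genes of like length was not tested. Because of the relation with length, each library was also corrected for length and GC content.

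**Figure D2:**
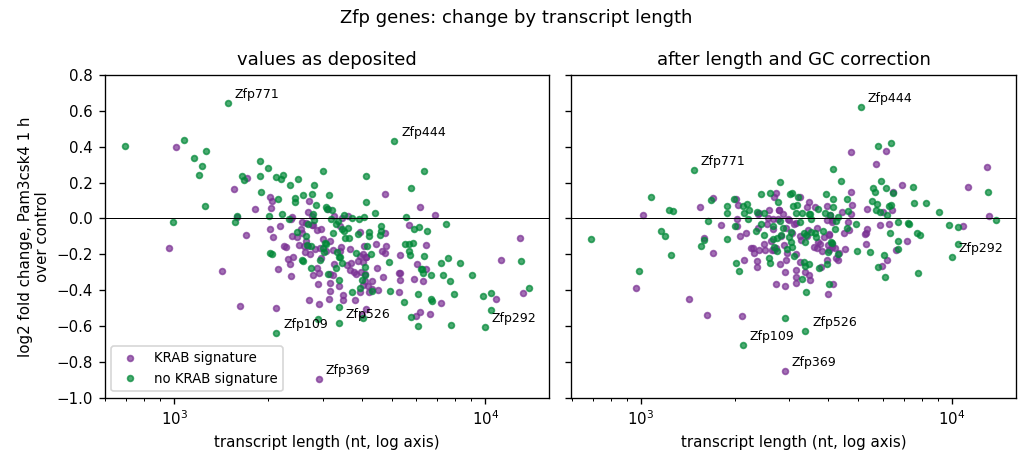
Log2 fold change of Pam3csk4 at 1 h over control (y axis) against transcript length in nt on a log axis (x axis) for the tested members, before and after correction for length and GC content; each point is 1 gene. Long transcripts lie lower before the correction, and Zfp369 and Zfp109 lie near the bottom in both panels.

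After this correction 23 members changed with AmTARS at 1 h, 35 with AmTARS at 3 h, 48 with Pam3csk4 at 1 h and 94 with Pam3csk4 at 3 h. Over all genes, 15.2%, 19.6%, 23.9% and 42.1% changed in these comparisons. With AmTARS, 6 rose and 17 fell at 1 h, where 8.37% of all genes were higher and 6.83% lower, and 6 rose and 29 fell at 3 h, where 11.2% were higher and 8.42% lower. With Pam3csk4 at 1 h, 10 rose and 38 fell, where 11.9% were higher and 11.9% lower. With Pam3csk4 at 3 h, 18 rose and 76 fell, where 20.8% were higher and 21.4% lower. The members' share lower was then 6.34%, 10.8% and 14.2% in the other three groups and 28.4% with Pam3csk4 at 3 h.

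By KRAB signature, 7 of 130 members with it (5.38%) and 10 of 137 without it (7.3%) fell with AmTARS at 1 h after the correction. With AmTARS at 3 h, 15 with it (11.5%) and 14 without it (10.2%) fell, and with Pam3csk4 at 1 h, 19 with it (14.6%) and 19 without it (13.9%) fell. With Pam3csk4 at 3 h, 49 with it (37.7%) and 27 without it (19.7%) fell. Over all genes 6.83%, 8.42%, 11.9% and 21.4% were lower in these 4 comparisons. With the signature 1, 1, 3 and 3 members rose (0.769%, 0.769%, 2.31% and 2.31%). Without it 5, 5, 7 and 15 rose (3.65%, 3.65%, 5.11% and 10.9%). Over all genes 8.37%, 11.2%, 11.9% and 20.8% were higher. The median log2 differences in the 4 comparisons, in the same order, were -0.07, -0.11, -0.09 and -0.20 with the signature. Without it they were -0.03, -0.04, -0.03 and -0.06. Leaving out single libraries moved several of these counts by more than 1.5 times. Such fits can call fewer genes of any kind, and shares of all genes are given below for only some of them. With AmTARS at 1 h, 4 with the signature fell without control replicate 2, and 3, 5, 1 and 6 without the signature fell when AmTARS 1 h replicate 2, AmTARS 1 h replicate 3, control replicate 2 and control replicate 3 were left out in turn. With AmTARS at 3 h, 7, 8, 3 and 9 with the signature and 6, 7, 3 and 7 without it fell when AmTARS 3 h replicate 1, AmTARS 3 h replicate 3, control replicate 2 and control replicate 3 were left out. With Pam3csk4 at 1 h, 6 with the signature and 7 without it fell when Pam3csk4 1 h replicate 1 was left out, 7 and 8 when control replicate 2 was, and 8 with the signature when control replicate 3 was. The remaining values are for Pam3csk4 at 3 h. Without Pam3csk4 3 h replicate 3, the lowest library in the plot of library medians, 24 of 130 members with the signature fell (18.5%), and 15 of 137 without it (10.9%), where 15.4% of all genes were lower. Without control replicate 2, 27 of 130 with the signature and 14 of 137 without it fell, where 15.2% of all genes were lower. Without control replicate 3, 17 of 137 without the signature fell.

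**Figure D3:**
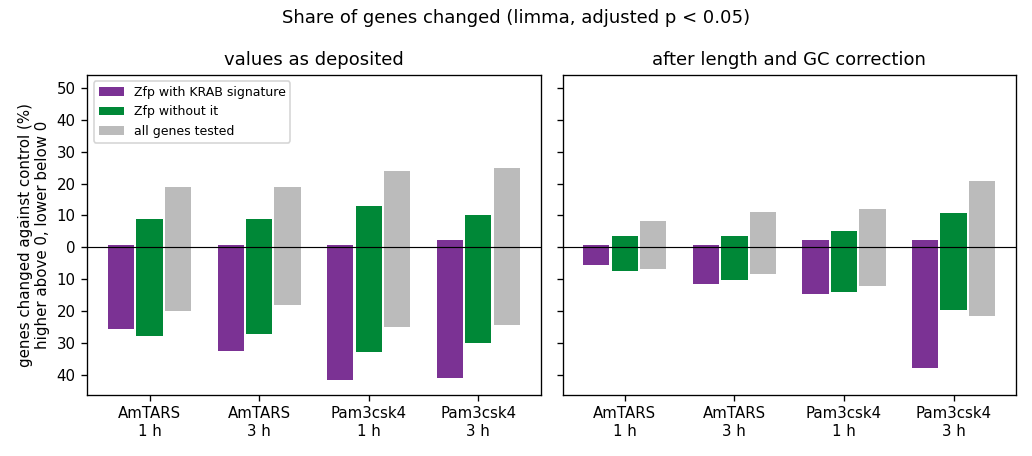
Percent of genes higher (above 0) and lower (below 0) than in control cells (y axis) in each treated group (x axis), for members with the KRAB signature, coding members without it and all genes tested, as deposited and after correction for length and GC content. Members with the signature rose in 0.769% to 2.31% of cases as deposited, and with Pam3csk4 at 3 h 37.7% were lower after the correction.

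Zfp369, Zfp109, Zfp292 and Zfp609 were among the 6 falls named at 1 h for each ligand. Zfp369, a protein with the KRAB signature and 6 fingers (chromosome 13, 65278814 to 65304221, mm10), had 1.27 and 1.89 CPM with AmTARS at 1 h, 1.73 and 2.09 CPM with AmTARS at 3 h, 1.33 and 1.56 CPM with Pam3csk4 at 1 h, 2.17 and 1.61 CPM with Pam3csk4 at 3 h, and 4.06 and 3.07 CPM in control cells. All 8 treated libraries lay below both control libraries. Its log2 fold change was -0.82 (SE 0.15, adjusted p = 0.000236) with AmTARS and -0.89 (SE 0.15, adjusted p = 5.67e-05) with Pam3csk4 at 1 h. It was -0.64 and -0.66 at 3 h, and all 4 falls passed after the correction as well.

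Zfp109, with 13 fingers (chromosome 7, 24227572 to 24237560), had 1.27 and 1.36 CPM with AmTARS at 1 h and 1.22 and 1.03 CPM with Pam3csk4 at 1 h, against 2.71 and 1.95 CPM in control cells. The groups did not overlap, and the log2 fold changes were -0.52 (adjusted p = 0.00486) and -0.64 (adjusted p = 0.000571). Zfp292, a protein of 15 fingers encoded by one of the longest transcripts (chromosome 4, 34803113 to 34882960), had 14.4 and 13.8 CPM with AmTARS at 1 h and 12.3 and 14.4 CPM with Pam3csk4 at 1 h, against 21.6 and 20.1 CPM in control cells. Its log2 fold changes of -0.53 and -0.61 were reduced to -0.20 and -0.21 by the correction and still passed. Zfp609 fell by 0.51 with AmTARS and by 0.59 with Pam3csk4 on the log2 scale, Zfp398 fell by 0.52 with AmTARS, and Zfp608 and Zfp526 fell by 0.60 and 0.58 with Pam3csk4. All 6 falls named for either ligand at 1 h passed after the correction.

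Zfp445, a KRAB protein that maintains imprints together with Zfp57, fell in all 4 treated groups. It had 38.8 and 39.4 CPM with AmTARS at 1 h, 39.8 and 41.8 CPM with AmTARS at 3 h, 36.7 and 40.1 CPM with Pam3csk4 at 1 h, 44.3 and 39.7 CPM with Pam3csk4 at 3 h, and 54.6 and 56.2 CPM in control cells. No treated library reached a control library. The log2 fold changes were -0.49, -0.43, -0.52 and -0.39 (SE 0.06 each, adjusted p at most 5.17e-05), and after the correction -0.25, -0.22, -0.23 and -0.21, all passing.

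Rises at 1 h were led by Zfp771, a protein of 8 fingers. It had 6.92 and 7.15 CPM with AmTARS at 1 h, 7.2 and 5.89 CPM with AmTARS at 3 h, 8.44 and 7.63 CPM with Pam3csk4 at 1 h, 8.05 and 6.72 CPM with Pam3csk4 at 3 h, and 4.6 and 4.97 CPM in control cells. All treated libraries lay above both control libraries, with a log2 fold change of 0.47 (SE 0.10, adjusted p = 0.00149) with AmTARS and 0.64 (SE 0.10, adjusted p = 5.49e-05) with Pam3csk4 at 1 h. After the correction the Pam3csk4 rises passed at both times (0.27 and 0.29), and the AmTARS values, 0.16 and 0.13, did not.

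The other rises at 1 h were of short transcripts, with Zfp444 and Zfp219 as exceptions. Zfp524, Zfp688, Zfp637, Zfp511 and Zfp580 had transcripts of 693 to 1263 nt, and none of their rises named at 1 h passed after the correction. Zfp444, with 4 fingers and a transcript of 5104 nt, had 21.1 and 21.2 CPM with AmTARS at 1 h and 23.4 and 20.6 CPM with Pam3csk4 at 1 h, against 16.9 and 15.2 CPM in control cells. Its log2 fold changes were 0.38 and 0.43 as deposited and 0.55 and 0.62 after the correction, which was adjusted p = 5.93e-05 with AmTARS and 4.52e-06 with Pam3csk4. With Pam3csk4 at 3 h Zfp444 had 17.1 and 15.5 CPM, which overlapped the control libraries. Zfp219 rose by 0.25 with AmTARS at 1 h and by 0.15 after the correction.

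With AmTARS at 3 h, Zfp760 fell by 0.56, Zfp169 fell by 0.55 and Zfp704 fell by 0.52 on the log2 scale, beside Zfp369, Zfp109 and Zfp609. The Zfp704 fall did not pass after the correction. Zfp775 rose by 0.40 and by 0.43 after the correction, while the rises of Zfp580, Zfp821 and Zfp511 (0.35, 0.32 and 0.30) did not pass after it.

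Zfp395 and Zfp263 passed against control with Pam3csk4 at 3 h and not at 1 h, and the difference between these times passed for both. Zfp395 (chromosome 14, 65358389 to 65398930) had 8.08 and 6.47 CPM with Pam3csk4 at 3 h, 12.6 and 13.3 CPM with Pam3csk4 at 1 h, and 14.1 and 13.8 CPM in control cells. The libraries at 3 h stood apart from all others, with a log2 fold change of -0.86 (SE 0.09, adjusted p = 2.13e-07) against control and -0.76 (adjusted p = 1.55e-06) against 1 h. With AmTARS at 3 h Zfp395 had 13 and 13.1 CPM, which was 0.77 above Pam3csk4 at 3 h on the log2 scale (SE 0.09, adjusted p = 2.48e-06). Zfp704 fell by 0.79, Zfp760 by 0.61, Zfp763 by 0.58 and Zfp273 by 0.56 with Pam3csk4 at 3 h, and all passed after the correction.

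Zfp263, with 9 fingers (chromosome 16, 3744093 to 3750790), rose where Zfp395 fell. It had 105 and 101 CPM with Pam3csk4 at 3 h, 69.1 and 67.7 CPM with Pam3csk4 at 1 h, 70.7 and 70.1 CPM with AmTARS at 3 h, 69.3 and 67.1 CPM with AmTARS at 1 h, and 71.8 and 72.8 CPM in control cells. Both libraries of Pam3csk4 at 3 h lay above all others. The log2 fold change against control was 0.50 (SE 0.05, adjusted p = 6.2e-08), and 0.55 after the correction.

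Zfp658 and Zfp719, neighbours on chromosome 7 (43562256 to 43575461 and 43579610 to 43593235) that both carry the KRAB signature, were also higher with Pam3csk4 at 3 h. Zfp658 had 7.76 and 9.74 CPM with Pam3csk4 at 3 h, 4.85 and 4.82 CPM with Pam3csk4 at 1 h, and 6.91 and 6.78 CPM in control cells. Zfp719 had 8.67 and 10.6 CPM with Pam3csk4 at 3 h, 5.74 and 5.82 CPM with Pam3csk4 at 1 h, and 6.85 and 7.57 CPM in control cells. For both genes the libraries at 3 h lay above control and those at 1 h below it. Against control they rose by 0.31 and 0.37 on the log2 scale at 3 h (adjusted p = 0.0163 and 0.00594) and fell by 0.43 and 0.27 at 1 h. After the length and GC correction the rises at 3 h were 0.37 and 0.47 and passed. The falls at 1 h are given as deposited only. Reads that fit both neighbours cannot be told apart here. Zfp275, on chromosome X, rose by 0.33 and Zfp593, the counterpart of a yeast ribosome assembly factor, by 0.47 with Pam3csk4 at 3 h.

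**Figure D4:**
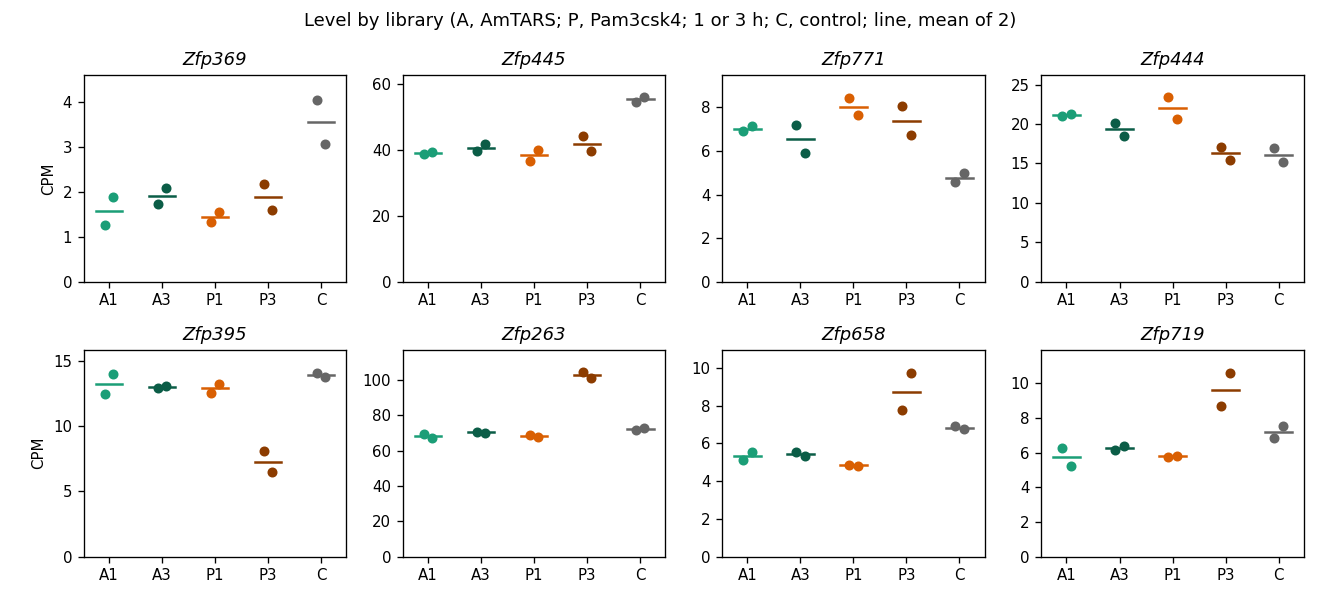
Level in CPM (y axis) of 8 named members in each library by group (x axis; A, AmTARS; P, Pam3csk4; numbers, hours; C, control); points are libraries and lines the mean of 2. Zfp369 and Zfp445 are lower and Zfp771 higher in each treated group than in control cells, while Zfp395, Zfp263, Zfp658 and Zfp719 stand apart with Pam3csk4 at 3 h.

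Between the ligands, no member differed at 1 h by limma with adjustment over all genes, where 0.184% of all genes were called. At an unadjusted p below 0.05 there were 17 members, and limma on voom weights of the recovered reads also called 0, with 13 at an unadjusted p below 0.05. At 3 h, AmTARS was above Pam3csk4 for 11 members (4.1%) and below it for 10 (3.73%), against a background of 8.04% and 9.08% (17.1% changed). Besides Zfp395, Zfp775 (0.41), Zfp763 (0.41) and Zfp810 (0.38) were higher with AmTARS, and Zfp658 (-0.59), Zfp263 (-0.54), Zfp719 (-0.54) and Zfp275 (-0.44) were lower. These 8 differences passed after the correction. Without AmTARS 3 h replicate 1, AmTARS 3 h replicate 3 or Pam3csk4 3 h replicate 3, 9, 12 or 11 members differed in place of 21.

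Over time, no member changed between 3 h and 1 h of AmTARS by limma with adjustment, where 2.38% of all genes were called. At an unadjusted p below 0.05 there were 13, and with voom 1 member was called. After the length and GC correction 1 member was called, where 4.04% of all genes were. With Pam3csk4, 22 members were higher and 22 lower at 3 h than at 1 h (8.21% each), where 16.2% of all genes were higher and 15.3% lower (31.5% changed). Zfp800 rose by 0.67, with 17.3 and 18.6 CPM at 3 h against 11.3 and 10.5 CPM at 1 h. Zfp961, Zfp692 and Zfp651 fell by 0.54, 0.47 and 0.43. Without Pam3csk4 1 h replicate 1, 27 members changed in place of 44. The change over time differed between the ligands for 9 members, where 9.2% of all genes differed. The change with AmTARS was above the change with Pam3csk4 for 2 (0.746% of members, against 3.49% of all genes). It was below the change with Pam3csk4 for 7 (2.61% of members, against 5.71% of all genes). After the correction 16 members differed (3.73% of members above and 2.24% below), where 12.2% of all genes did (5.18% above and 7.03% below). Without AmTARS 1 h replicate 2 there were 5, and without Pam3csk4 3 h replicate 2 there were 15.

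Of 2 members with a known part in NF-kB signalling, Zfp91 fell as deposited and Zfp64 did not pass. Zfp91, a ubiquitin ligase for the NF-kB-inducing kinase, had 72.1 and 67.1 CPM with AmTARS at 1 h and 69.4 and 69.3 CPM with Pam3csk4 at 1 h, against 74.5 and 79.1 CPM in control cells. It fell by 0.14 with either ligand on the log2 scale (adjusted p = 0.0407 and 0.0286), and the values turned to 0.08 and 0.10 after the correction. Zfp64, which enhances activation of p65 in stimulated macrophages, had log2 differences of 0.02 to 0.09 and passed in no group.

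Among 7 members that act on RNA or translation, 3 fell with each ligand at 1 h and 1 rose, where 19.8% of all genes were lower and 18.9% higher with AmTARS and 24.8% lower and 23.9% higher with Pam3csk4. After the correction 1 fell and 1 rose with AmTARS, and 0 fell and 1 rose with Pam3csk4. Zfp106, an RNA-binding protein, had 119 to 129 CPM in treated libraries and 155 CPM in both control libraries. It fell by 0.31 to 0.33 in each treated group, and after the correction its values were -0.07 to 0.04 and none passed. Zfp638 fell in each treated group and Zfp318, needed for IgD on B cells, at 1 h, and neither passed after the correction. Zfp622, a factor in maturation of the large ribosomal subunit, rose by 0.16 with AmTARS and 0.19 with Pam3csk4 at 1 h, and passed after the correction too. Zfp598, the ligase that marks collided ribosomes, had values of -0.01 to 0.10 and passed in no group. Zfp326, a subunit of a splicing complex, fell by 0.22 with AmTARS at 3 h, and Zfp346, which binds structured RNA, did not pass in any group as deposited but was lower after the correction in all groups but Pam3csk4 at 1 h (-0.25, -0.27 and -0.23).

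Of 3 members in mitosis or genome upkeep, Zfp207 had 111 to 123 CPM in treated libraries and 114 CPM in both control libraries. It did not pass as deposited, and was lower with Pam3csk4 at 1 h after the correction (-0.16 as a log2 difference). Zfp335, with AmTARS at 1 h, fell by 0.18 and lost its call under the correction. Zfp668, linked to DNA repair, did not pass as deposited but was higher in all 4 groups after the correction, by 0.30 to 0.40.

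Of 7 members grouped here as activators or general DNA-binding factors, 4 fell with AmTARS and 5 with Pam3csk4 at 1 h. Over all genes 19.8% and 24.8% were lower. After the correction 1 and 2 of the 7 fell, where 6.83% and 11.9% of all genes were lower. At 3 h, 3 fell and 0 rose with AmTARS, and 3 fell and 2 rose with Pam3csk4. Over all genes 17.9% and 24.2% were then lower and 18.8% and 24.7% higher. After the correction 0 fell at 3 h with either ligand, and 0 rose with AmTARS and 2 with Pam3csk4. Over all genes 8.42% and 21.4% were lower in that setting and 11.2% and 20.8% higher. Zfp281 and Zfp148, which bind GC-rich promoter sites, fell in all 4 groups, by 0.26 to 0.40 and by 0.24 to 0.43, and none of these falls passed after the correction. Zfp148 turned to 0.09 and 0.01 with AmTARS in that setting. Zfp384 fell by 0.16 with AmTARS and 0.15 with Pam3csk4 at 1 h, and passed after the correction too. Zfp217 fell in all 4 groups as deposited, by 0.17 to 0.31, and in none after the correction. Zfp143 itself, whose site core marked many members' promoters, had -0.16 to 0.03 and did not pass in any group. Zfp131 had 29.2 and 26.9 CPM with Pam3csk4 at 3 h, 18.9 and 18.6 CPM with Pam3csk4 at 1 h and 24.2 and 22.8 CPM in control cells. It fell by 0.31 at 1 h and rose by 0.25 at 3 h, and both passed after the correction.

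Of the 3 Zfp subunits that pair with the chromatin reader Zmynd8, Zfp592 fell in all 4 groups (-0.23 to -0.32) and Zfp532 in 3 (-0.45 each), neither after the correction, while Zfp687 passed in none (-0.04 to -0.11).

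Of 4 tested KRAB members known to silence imprinted genes or retroelements, 2, 2, 3 and 3 fell with AmTARS at 1 h and 3 h and Pam3csk4 at 1 h and 3 h, where 19.8%, 17.9%, 24.8% and 24.2% of all genes were lower. After the correction 3, 2, 3 and 3 of the 4 fell, where 6.83%, 8.42%, 11.9% and 21.4% of all genes were lower. Besides Zfp445, described above, Zfp568, which represses a placental promoter of Igf2, had 7.46 and 6.56 CPM with AmTARS at 1 h and 6.74 and 5.91 CPM with Pam3csk4 at 1 h, against 9.22 and 10.1 CPM in control cells. At 1 h Zfp568 fell by 0.41 and 0.54 and passed after the correction for both. With Pam3csk4 at 3 h its log2 difference was -0.19, and -0.08 after the correction, and neither passed. Zfp809, which silences proviruses in embryonic cells, fell by 0.29 with Pam3csk4 at 1 h and at 3 h, and after the correction it was lower in all 4 groups, by 0.35 to 0.45. Zfp932, a repressor of endogenous retroviruses, fell by 0.38 with Pam3csk4 at 3 h and by 0.47 after the correction. Zfp57 was not analysed here.

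The partners of KRAB proteins were examined from a list of 21 genes of the silencing complexes. As deposited, 14, 10, 13 and 9 of them were lower and 0, 2, 2 and 2 higher with AmTARS at 1 h and 3 h and Pam3csk4 at 1 h and 3 h, where 19.8%, 17.9%, 24.8% and 24.2% of all genes were lower and 18.9%, 18.8%, 23.9% and 24.7% higher. After the correction 3, 5, 3 and 7 were lower and 0, 2, 0 and 3 higher, where 6.83%, 8.42%, 11.9% and 21.4% of all genes were lower and 8.37%, 11.2%, 11.9% and 20.8% higher. Trim28 averaged 126, 130, 133 and 117 CPM in these groups and 123 CPM in control cells, and passed with Pam3csk4 at 1 h alone, at 0.12, which was 0.04 and did not pass after the correction. Setdb1 averaged 44.5, 44.3, 43.7 and 34.8 CPM and 53 CPM in control cells. It fell by 0.25, 0.25, 0.27 and 0.59, and after the correction the fall with Pam3csk4 at 3 h passed, at -0.45. Atf7ip, the cofactor of Setdb1, fell by 0.56, 0.68, 0.69 and 0.77, and Atrx, a chromatin remodeller, by 0.51, 0.59, 0.64 and 0.51, all passing after the correction. Dnmt1, the maintenance DNA methyltransferase, fell by 0.21, 0.27, 0.29 and 0.63 in the 4 groups, and after the correction the falls with AmTARS at 3 h (-0.14, adjusted p = 0.0453) and Pam3csk4 at 3 h (-0.47, adjusted p = 3.74e-08) passed.

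Other zinc finger families were examined in the same fit. Of 34 tested Zbtb genes, whose proteins join fingers to a BTB domain, 8, 12, 14 and 11 were lower and 2, 2, 1 and 3 higher in the 4 groups, and after the correction 1, 3, 5 and 9 were lower and 2, 1, 1 and 6 higher. Of 17 Zscan and Zkscan genes, which carry a SCAN domain, 4, 4, 6 and 10 were lower and 0, 0, 0 and 1 higher, and after the correction 3, 2, 4 and 8 were lower and 0, 0, 0 and 1 higher. Over all genes 19.8%, 17.9%, 24.8% and 24.2% were lower as deposited, and 6.83%, 8.42%, 11.9% and 21.4% after the correction. The shares of all genes higher were 18.9%, 18.8%, 23.9% and 24.7% as deposited, and 8.37%, 11.2%, 11.9% and 20.8% after the correction. Their median log2 differences with Pam3csk4 at 3 h were -0.13 for Zbtb and -0.24 for Zscan and Zkscan genes, and after the correction -0.0008 and -0.20. Whether the families differ was not tested.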

How the data were processed

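Poly-A selected, stranded libraries were made, per the labels' protocols, and the submitters' processing notes name STAR 2.5.1, R 3.3.0 and the build mm10. How reads were counted and scaled is not given in the sources used here. Values deposited by the authors are log2(CPM + 1), for 10 libraries. Read counts recovered from the deposited values with 1 factor per library were whole to within 0.1 read for 100% of values.

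The 11407 genes that averaged 1 CPM or more were fitted with limma 3.58.1 in R 4.3.3, with 1 mean per group and an intensity trend (5 residual and 14.7 prior degrees of freedom). P-values were adjusted by Benjamini-Hochberg over all genes within each of 8 comparisons and for the difference of the ligands' changes over time. "Rose" and "fell" mean adjusted p below 0.05, and SE is the moderated standard error. A log2 difference on this scale understates changes of low genes. For the length and GC correction, natural splines (5 degrees of freedom) in length and in GC percent were subtracted from each library's deviations from the gene mean. GENCODE M21 gave lengths and positions for 11366 tested genes and for all 277 members. Fingers and KRAB signatures were found by letter patterns in translated coding sequences. The calculation was tested on simulated data.

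Named were, against control, the 6 largest falls and rises among members that changed, with at least 2 CPM in the higher group and no overlap between libraries, and 4 each way between treated groups. Also named were members with a listed role, and Trim28, Setdb1 and 3 more partners. Members, lists and the correction were chosen with earlier results of these data known. Alternatives were other filters, pseudocounts, scalings and spread estimates, a replicate term, voom and leaving out each library. Figures used matplotlib 3.10.9 in Python 3.11.15.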

Additional observations from a re-analysis of the deposited data

Results flagged for a closer look

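For 9 members the change between 3 h and 1 h differed between the ligands by a test of that difference (AmTARS change minus Pam3csk4 change, limma, adjusted p below 0.05), where 9.2% of all genes tested did. A positive difference passed for 0.746% of members, against 3.49% of all genes, and a negative one for 2.61%, against 5.71%. The difference was 0.7364 for Zfp395 and 0.5247 for Zfp692, which fell over time with Pam3csk4. It was -0.7047 for Zfp658, -0.6021 for Zfp131, -0.538 for Zfp263, -0.5281 for Zfp719, -0.4734 for Zfp275, -0.4594 for Zfp503 and -0.4067 for Zfp800, which rose over time with Pam3csk4. With AmTARS none of the 9 passed between 3 h and 1 h, with changes of -0.11 for Zfp503 to 0.26 for Zfp800. After the length and GC correction Zfp800 no longer passed (adjusted p = 0.126), and the other 8 did. Without AmTARS 1 h replicate 2, 5 members differed, and without Pam3csk4 3 h replicate 2, 15 did. Zfp503 had 23.5 and 21.7 CPM with Pam3csk4 at 3 h and 18 and 16.9 CPM with Pam3csk4 at 1 h, and the groups did not overlap.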

How the results depend on the processing

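Other filters on low values, a pseudocount of 0.25 or 5, median or quantile scaling and a fit with no intensity trend left each count of members changed within 1.5 times. After the length and GC correction, 23 members changed with AmTARS at 1 h, 35 with AmTARS at 3 h and 48 with Pam3csk4 at 1 h against control, 1 between 3 h and 1 h of AmTARS, and 16 by the difference of time changes. With a term for the replicate block, 31 changed with AmTARS at 3 h and 71 with Pam3csk4 at 1 h, 29 between 3 h and 1 h of Pam3csk4, 1 between those times of AmTARS, and 5 by the difference of time changes. Whether the replicate numbers pair the samples cannot be decided here. Deviations of same-numbered libraries correlated at -0.206 to 0.204 over 14 pairs, with both signs present. Deviations of the 2 libraries of a group mirror each other. The range of the other pairs, -0.206 to 0.206 over 26, is therefore symmetric by construction and gives no comparison. Between 3 h and 1 h of AmTARS, 2 changed with the compared groups alone and 1 with voom. Leaving out each library in turn gave 38 to 88, 32 to 99, 75 to 122 and 56 to 116 members against control for AmTARS at 1 h and 3 h and Pam3csk4 at 1 h and 3 h, 0 in each case and 9 to 28 between ligands at 1 h and 3 h, 0 to 1 and 27 to 45 over time with AmTARS and Pam3csk4, and 5 to 15 by the difference of time changes. Where that leaves 1 library in a group, it is assumed to vary like the other groups. Such a fit can call fewer genes of any kind, so a lower count in it is not a result about the members. Of 175 named values, 16 changed sign, all under the length and GC correction and none of them passing in it: Zfp580 with Pam3csk4 at 1 h (-0.112), Zfp91 with AmTARS at 1 h and 3 h and Pam3csk4 at 1 h (0.0753, 0.0449 and 0.0996), Zfp106 at 1 h (AmTARS 0.0144, Pam3csk4 0.0357), Zfp318 at 1 h (0.0807 and 0.147), Zfp148 with AmTARS (0.0929 and 0.0113), Zfp638 with AmTARS at 3 h and Pam3csk4 at 1 h and 3 h (0.00799, 0.0211 and 0.00568), Zfp217 with Pam3csk4 (0.0467 and 0.0232) and Zfp592 with Pam3csk4 at 3 h (0.00715). That setting removes trends with length and GC by its construction. Under it another 32 values no longer passed and 10 passed that had not. The replicate block took 24 values out of significance.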
